A study of Mus musculus with 10 samples.

Results

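Of 103446 regions of open chromatin found in mouse haematopoietic stem and progenitor cells (HSPCs), 5308 had a peak in both libraries of double mutant (DM) cells and in none of the 6 libraries of Npm1c, Flt3-ITD and wild-type (WT) cells. These regions are called DM-only here. They were chosen by their presence and absence in the peak lists, so their number and their absence from the other 6 lists describe the choice and are given with no test. The share of all regions that met this rule was 5.13%, and it is the background against which shares of gene lists stand below.

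ATAC-seq, in which the Tn5 transposase cuts and tags accessible DNA, was run on lineage-negative bone marrow cells of C57BL/6 mice, isolated with a depletion kit from flushed leg bones. DM cells carried Npm1flox-cA/+, Flt3ITD/+ and Mx1-Cre+. Npm1c cells carried Npm1flox-cA/+ and Mx1-Cre+, Flt3-ITD cells carried Flt3ITD/+, and WT cells carried none of these alleles. Each of the 4 genotypes had 2 libraries, which the design text calls biological replicates, and the sources used here do not say how many animals stand behind one or how old they were. Mx1-Cre is switched on by interferon and acts in many cell types of the marrow. The labels name it for DM and Npm1c but not for Flt3-ITD and WT, so that the Npm1c allele and the Cre cannot be told apart.

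NPM1 is a nucleolar protein that shuttles ribosomal and histone cargo, and the mutant form Npm1c is held in the cytoplasm. FLT3 is a receptor tyrosine kinase of early progenitors and dendritic cell precursors, and its internal tandem duplication (ITD) signals without ligand through STAT5 and the RAS-MAPK pathway. Mutations of both genes often occur together in acute myeloid leukaemia. Regions that open in only some blood cell types mostly lie away from gene starts, where lineage transcription factors such as PU.1, C/EBP, RUNX and IRF proteins bind.

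The peak lists hold positions only, with no height or significance, so a region is present or absent and has no strength beyond its width. DM lists held 55624 and 63133 peaks, Npm1c lists 62782 and 68676, Flt3-ITD lists 43825 and 51733, and WT lists 80916 and 63908. The sources used here give no read depth. All 10 HSPC marker genes checked, among them Kit and Cd34, held a called region within 1 kb of the gene in each of the 8 libraries. Calls at these genes numbered 79 and 83 in DM, 98 and 103 in Npm1c, 62 and 72 in Flt3-ITD, against 127 and 89 in WT. The markers of other cell types, also counted within 1 kb of the gene, were not equal between genotypes. Of 5 T and NK cell markers, 2 and 3 had a call in the DM libraries and 0 had one in each of the other 6, with Cd3g and Ncr1 at 0 in all 8. Calls at 5 dendritic markers numbered 27 and 33 in DM, against 13 to 18 in the other 6 libraries, and all 5 genes had a call in every library. Calls at 5 monocyte and macrophage markers numbered 12 and 15 in DM, against 6 to 11, with Ly6c2 at 0 in all 8. Calls at the B cell markers Cd79a, Cd79b, Pax5 and Ms4a1 numbered 8 and 15 in DM, against 2 to 5. Calls at 5 red cell markers numbered 4 and 2 in DM, against 6 to 11, with Hbb-bs at 0 in both DM libraries and Hba-a1 at 0 in all 8. At the neutrophil markers they numbered 4 and 3 in DM, against 1 to 4, and at the megakaryocyte markers 12 and 12, against 10 to 16. At the stroma and endothelium markers they numbered 21 and 26 in DM, against 10 to 23. DM-only regions were among these calls, 2 at the T and NK, 8 at the dendritic and 2 at the monocyte and macrophage markers. Another 3 were at the B cell markers, and 6 at the HSPC markers. The megakaryocyte and the stroma and endothelium markers held 2 each, and the neutrophil markers 1. The absence of such regions from the other 6 libraries follows from the rule. The part of the markers in the results below was not tested, and in bulk cells a larger share of 1 cell type and more open chromatin per cell cannot be told apart.

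A promoter window, here 250 bases before to 50 bases after a RefSeq gene start on GRCm38.p6 (mm10), was overlapped by only 58 of the 5308 regions, which touched 59 windows of 58 genes. Of these genes, 5 were in the gene lists, and their windows are shown because they tie a DM-only region to the start of a listed blood cell gene. Fcgr4 encodes an activating IgG receptor of monocytes and neutrophils, and Cd209a a C-type lectin of dendritic cells. Cd8a encodes the CD8 alpha chain, Il2ra the alpha chain of the IL-2 receptor, and Lck the kinase that starts T cell receptor signalling. A further window, of the lymphotoxin gene Lta, was chosen after its values were seen, as its region was wide in both DM lists. The windows run 5′ to 3′ on the gene's strand, and capitals mark matches on either strand to the letters searched, spelled out below, except for the E-box letters CANNTG and CAGCTG, whose matches stay in lower case.
Fcgr4, chr1:171018676-171018975, plus strand: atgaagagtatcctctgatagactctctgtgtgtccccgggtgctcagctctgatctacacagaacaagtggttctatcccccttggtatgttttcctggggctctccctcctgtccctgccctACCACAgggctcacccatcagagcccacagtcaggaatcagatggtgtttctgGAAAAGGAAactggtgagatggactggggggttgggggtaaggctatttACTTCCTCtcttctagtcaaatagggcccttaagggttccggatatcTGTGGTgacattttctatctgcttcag
Cd209a, chr8:3748935-3749234, minus strand: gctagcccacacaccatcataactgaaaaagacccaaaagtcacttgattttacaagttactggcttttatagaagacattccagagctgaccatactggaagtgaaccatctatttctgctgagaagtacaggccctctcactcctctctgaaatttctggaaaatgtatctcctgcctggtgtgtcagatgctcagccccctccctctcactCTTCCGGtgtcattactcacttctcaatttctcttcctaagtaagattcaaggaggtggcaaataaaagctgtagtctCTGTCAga
Cd8a, chr6:71373177-71373476, plus strand: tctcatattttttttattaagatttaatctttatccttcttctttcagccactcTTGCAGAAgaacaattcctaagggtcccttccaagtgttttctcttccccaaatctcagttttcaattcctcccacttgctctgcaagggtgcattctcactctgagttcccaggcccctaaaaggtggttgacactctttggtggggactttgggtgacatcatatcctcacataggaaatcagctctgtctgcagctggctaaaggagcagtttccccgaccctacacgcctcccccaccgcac
Il2ra, chr2:11642542-11642841, plus strand: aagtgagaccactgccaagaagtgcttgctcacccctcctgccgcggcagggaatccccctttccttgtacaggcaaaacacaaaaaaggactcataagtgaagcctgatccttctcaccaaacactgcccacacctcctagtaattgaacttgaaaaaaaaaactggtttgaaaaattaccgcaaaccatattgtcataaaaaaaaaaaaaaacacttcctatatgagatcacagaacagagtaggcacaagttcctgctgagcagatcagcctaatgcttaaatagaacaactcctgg
Lck, chr4:129558323-129558622, minus strand: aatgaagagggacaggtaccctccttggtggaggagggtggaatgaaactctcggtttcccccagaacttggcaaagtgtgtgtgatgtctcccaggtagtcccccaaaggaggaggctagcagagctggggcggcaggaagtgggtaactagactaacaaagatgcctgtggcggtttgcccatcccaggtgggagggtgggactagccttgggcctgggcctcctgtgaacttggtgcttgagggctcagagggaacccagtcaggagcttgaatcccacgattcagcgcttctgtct
Lta, chr17:35205302-35205601, minus strand: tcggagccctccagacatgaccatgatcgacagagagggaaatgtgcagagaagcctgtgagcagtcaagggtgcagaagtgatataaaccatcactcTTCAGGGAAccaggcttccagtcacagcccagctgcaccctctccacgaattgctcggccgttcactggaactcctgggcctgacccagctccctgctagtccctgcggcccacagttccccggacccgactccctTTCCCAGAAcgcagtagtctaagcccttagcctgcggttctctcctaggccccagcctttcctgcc

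The DM-only region at Fcgr4, chr1:171018736-171019054, covered positions 61 to 300 of the window counted from its 5′ end, and its peaks were 282 and 319 bp wide in the DM libraries. That stretch held matches to the PU.1 letters GAGGAAGT, 24 to 17 bases before the start, to the IRF letters GAAANNGAA, 73 to 65 bases before it, and to the RUNX letters TGTGGT at 126 bases before and 23 bases after it. The region at Cd209a covered positions 68 to 300, with peaks of 240 and 439 bp, and held a match to the ETS letters CTTCCGG and one to the MEIS letters TGACAG. The region at Cd8a covered positions 63 to 300, with peaks of 268 and 357 bp, while the match to the C/EBP letters TTGCNNAA in that window began at position 55, before the region. The regions at Il2ra, with peaks of 209 and 358 bp, and at Lck, with peaks of 254 and 315 bp, covered 271 and 291 of the 300 bases, and neither window held a match in capitals. At Lta the peaks were 597 and 657 bp wide and covered the whole window, which held 2 matches to the STAT letters TTCNNNGAA. None of these 6 regions had a peak in an Npm1c, Flt3-ITD or WT library, which the rule itself requires.

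Over all 59 windows, RUNX letters were found in 15 (25.4%), against 14.7% of all 21045 promoter windows, and MEIS letters in 15 (25.4%), against 18.3%. STAT letters were found in 7 windows (11.9%), against 7.76%, IRF letters in 5 (8.47%), against 8.10%, and PU.1 letters in 2 (3.39%), against 3.15%. The C/EBP letters stood in 5 windows (8.47%), against 10.3%, the ETS letters in 3 (5.08%), against 11.7%, the AP-1 letters TGANTCA in 3 (5.08%), against 7.04%, and the GATA letters AGATAA in 4 (6.78%), against 9.68%. The HOX/PBX letters TGATTNAT stood in 2 windows (3.39%), against 2.78%, and the palindromic C/EBP letters TTGCGCAA in 0 of 59, against 0.223%. The general E-box CANNTG was in 67.8% of the windows, against 69.0%, and its form CAGCTG in 15.3%, against 15.7%. Both strands were searched, and the letters of TTGCGCAA and CAGCTG also fall under TTGCNNAA and CANNTG. Matches were counted over the whole window, also where the DM-only region covered only part of it. The RUNX and MEIS matches at Zbtb32 lay outside its region, as did the MEIS matches at Egfem1 and Pde1b and the STAT matches at Fbxl7 and Olfr572. The 2 windows of Gramd2 overlap, and the same MEIS match was counted in both. With 59 windows the intervals are wide, from 15.0% to 38.4% for RUNX (95%, exact binomial, counting error only). These windows had a median GC content of 54.7% and a median of 6 CpG pairs, against 56.7% and 13 in all windows and 62% and 22 in the 10677 windows overlapped by regions called in all 8 libraries. DM-only promoter windows were thus poorer in CpG than those open in every library. Windows of other genes of the immune system were among the 59, chosen after their values were seen: those of the cytokine gene Il1b, the chemokine genes Ccl17 and Ccl6, the MHC class II accessory gene H2-DMb2, the osteoclast ligand gene Tnfsf11 and the inhibitory receptor gene Pdcd1.

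The number of regions called in both libraries of 1 genotype and in none of the other 6 was 5308 for DM (5.13%), 2465 for Npm1c (2.38%), 216 for Flt3-ITD (0.209%) and 3126 for WT (3.02%). The count for DM was the highest of the 4, although the list of DM replicate 1 was shorter than all but the Flt3-ITD lists. Just outside the rule stood 2774 regions called in both DM libraries and in 1 other library. That library was WT replicate 1, the longest list, in 1724 of them (62.1%), against 9 for WT replicate 2. Flt3-ITD replicates 1 and 2 accounted for 283 and 426, and Npm1c replicates 1 and 2 for 73 and 259. The 2 DM libraries entered unequally. Of 6519 regions called in DM replicate 1 and in none of the 6, 81.4% were also called in DM replicate 2, but of 12267 such regions of DM replicate 2, only 43.3% were called in DM replicate 1. Without DM replicate 1 the merged lists gave 12306 DM-only regions, without DM replicate 2 they gave 6642, and without WT replicate 1 they gave 7064.

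**Figure D1:**
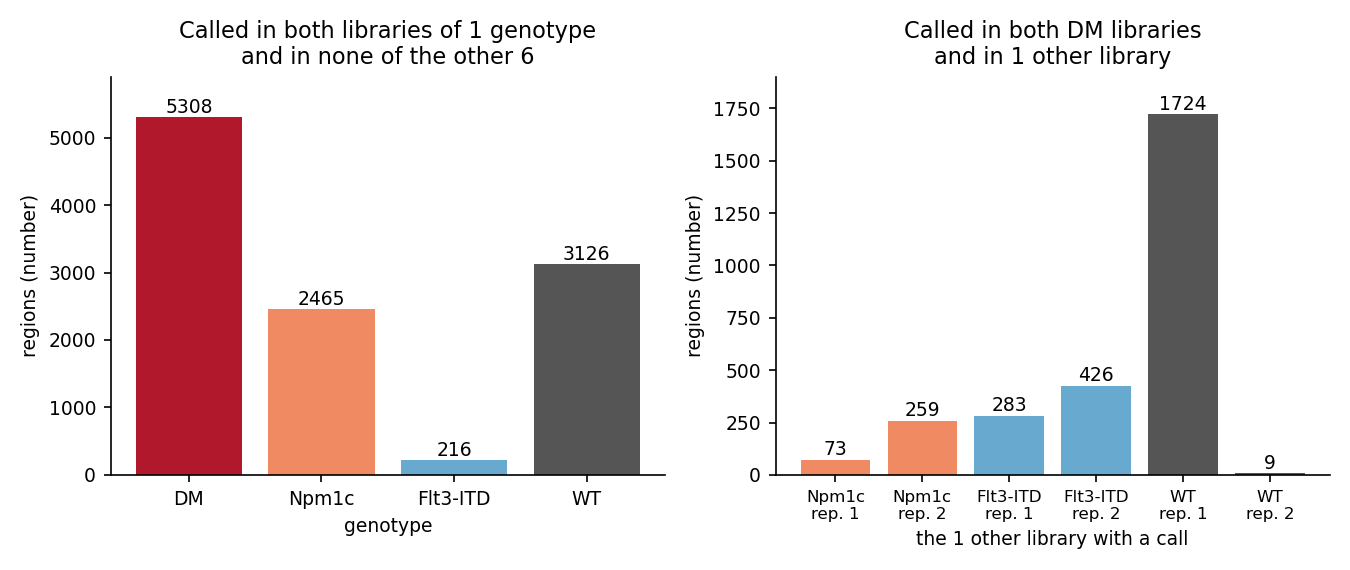
Left, number of regions called in both libraries of 1 genotype and in none of the other 6, for DM, Npm1c, Flt3-ITD and WT. Right, number of regions called in both DM libraries and in just 1 other library, by that library; WT replicate 1 holds 1724 of the 2774.

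DM-only regions were narrow, as were those of the other genotype-only sets. Their merged width had a median of 347 bp, against 352 bp for Npm1c-only, 316.5 bp for Flt3-ITD-only and 332 bp for WT-only regions and 435 bp for all regions. Their peaks had a median width of 279 bp in DM replicate 1 and 332 bp in DM replicate 2, against 401 and 402 bp for all peaks of the 2 lists. In the regions called in all 8 libraries the DM peaks had medians of 612 and 645 bp. The 2774 near misses were a little wider than the DM-only regions, with medians of 306 and 351 bp. In 74.8% of DM-only regions the peak was wider in DM replicate 2. Widths in the DM libraries were related across the 5308 regions (Spearman rho 0.43, Pearson r 0.55), as a description, since the regions share the same 2 libraries. A width above the median of both DM lists was seen in 284 regions (5.35%), and 1 region lay above the 90th percentile of both. Which regions met the rule depended on narrow peaks. When only peaks of at least 300 bp were used, 4233 regions met the rule, and of the 5308 original regions 1671 (31.5%) overlapped one of them. With the widest 43794 peaks of each list the figures were 3717 regions and 1753 original ones (33.0%).

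**Figure D2:**
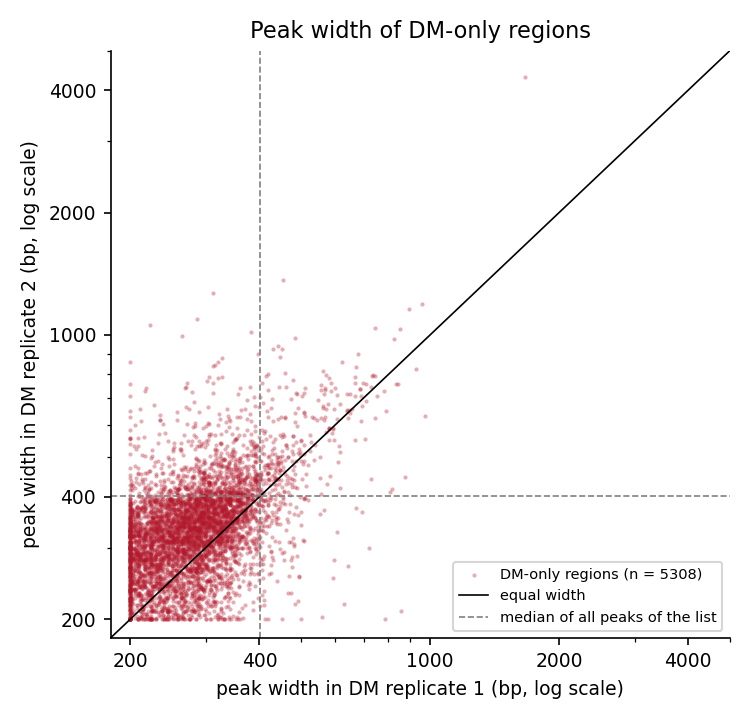
Peak width of each of the 5308 DM-only regions in DM replicate 1 (horizontal) and DM replicate 2 (vertical), in bp on log scales, with the line of equal width and the median width of all peaks of each list (401 and 402 bp, dashed). Most points lie below both medians, and 74.8% of the regions are wider in DM replicate 2.

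By the mean of the width percentiles in the DM lists, the leading region was chr18:60810518-60814824 at the end of Cd74, which encodes the invariant chain of MHC class II. Its peaks were 1663 bp in DM replicate 1 and 4307 bp in DM replicate 2. Next came chr8:120747808-120748998 inside Irf8, whose product is a transcription factor of dendritic cells and monocytes, with peaks of 957 and 1191 bp. The third, chr10:60302848-60304007 inside the cadherin gene Cdh23, had peaks of 893 and 1160 bp. Prss30, a serine protease gene, stood 2.75 kb from a region of 850 and 1034 bp. A region of 825 and 979 bp lay 132 kb from the nearest gene, Zfp703. The others of the leading 10 lay near the lectin gene Clec2f (926 and 826 bp) and the actin-regulated cofactor gene Mrtfb (834 and 759 bp) and inside Plec (746 and 1041 bp), Gm1043 (842 and 759 bp) and Stk32c (681 and 897 bp). Plec encodes the cytoskeletal linker plectin. None of these 10 regions overlapped a promoter window.

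DM-only regions lay away from gene starts. Their midpoint fell inside a gene in 51.7% (95% exact binomial interval 50.3% to 53.0%), against 59.6% of all regions. The shares for the regions particular to the other genotypes were 60.2% for Npm1c, 67.1% for Flt3-ITD and 62.5% for WT. A promoter window was overlapped by 1.09% of DM-only regions (0.831% to 1.41%), against 9.92% of all regions, 1.63% of all regions called in exactly 2 libraries and 32.3% of those called in all 8. This share was 0.527% for Npm1c-only, 2.31% for Flt3-ITD-only and 2.46% for WT-only regions, so a low share was not particular to DM. The distance to the nearest gene of regions outside genes had a median of 23.9 kb, against 14.7 kb for all regions. No gene lay within 100 kb of 486 DM-only regions (9.16%, interval 8.39% to 9.96%), against 5.19% of all regions, 10.7% of Npm1c-only and 2.53% of WT-only regions. By chromosome, the DM-only share of regions ranged between 3.47% on X and 7.05% on 15. The gene table used here gives no exons, introns or UTRs. Intervals treat regions as independent, which neighbouring regions are not.

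Another DM-only region lay within 20 kb of 1561 DM-only regions (29.4%), and the same share was 26.4% for Npm1c-only, 11.6% for Flt3-ITD-only and 22.1% for WT-only regions among themselves. A larger set leaves less room between its members, so these shares depend on set size, and without DM replicate 1, with 12306 regions, the share was 48.7%. The regions formed 665 runs, of which 504 held 2 regions and 14 held at least 5. The longest run, 11 regions over 16.7 kb, lay in Irf8, where 12 and 14 of the 14 regions in its span were called in DM, 0 in both Npm1c libraries and 1 in each of the Flt3-ITD and WT libraries. The second held 9 regions over 70.4 kb at Macroh2a1, the gene of the histone variant macroH2A1, where all 10 regions in the span were called in both DM libraries and 1 in each other library. The third held 8 regions over 16.4 kb inside Tbc1d4, a Rab GTPase-activating protein of glucose transporter traffic, with 9 of 10 regions called in both DM libraries and at most 1 in any other.

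Regions called in both DM and both Flt3-ITD libraries and in no Npm1c or WT library, 585 in all, lay within 10 kb of 149 DM-only regions (2.81%, interval 2.38% to 3.29%), against 1.25% of the other regions. For the 161 regions shared by DM and Npm1c in the same way, the shares were 0.245% and 0.295%. Regions called in all 6 other libraries and in no DM library were near 2.96% of DM-only regions, against 7.12% of the other regions. Regions called in all 8 libraries lay within 10 kb of 38.5% of DM-only regions, against 43.1%. All these patterns come from the same calls as the rule, so they describe where the regions lie and carry no test.

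Peak width was also followed in regions called in all 8 libraries that lay near DM-only regions. These neighbourhoods were picked by the calls of the same libraries, so the values are a description and support no difference between genotypes. Width was ranked within each library over the 26169 regions called in all 8, and the median percentile of the 2640 lying within 10 kb of a DM-only region was taken. It was 49.1 and 50.4 in DM, 37.9 and 36.5 in Npm1c, 45.2 and 43.8 in Flt3-ITD, against 39.5 and 38.5 in WT. Both DM libraries were above the other 6, Flt3-ITD was next, and the groups did not overlap. DM averaged 9.49 percentile points above the other 6 libraries (49.8 against 40.3). The same measure near the 2465 Npm1c-only regions, over 1150 regions, was 14.0 points higher in Npm1c, near the Flt3-ITD-only regions, over 120, it was 10.8 points higher in Flt3-ITD, and near the WT-only regions, over 1801, it was 2.08 points higher in WT. The mean of a set's own genotype was thus above the mean of the other 6 libraries for all 4 sets, not for DM alone. Near the WT-only regions, however, both Flt3-ITD libraries (52.8 and 54.5) stood above both WT libraries (51.6 and 52.3). For DM the difference was 12.04 points within 5 kb of a DM-only region, 6.25 at 5 to 10 kb, 4.16 at 10 to 20 kb and 2.05 at 20 to 50 kb. Beyond that it was -1.02 at 50 to 100 kb and -3.66 farther away. In bp, the median widths near DM-only regions were 632 and 680 in DM, 524 and 544 in Npm1c, 509 and 559.5 in Flt3-ITD, against 722 and 571.5 in WT, so the order holds for ranks within a library and not for bp.

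**Figure D3:**
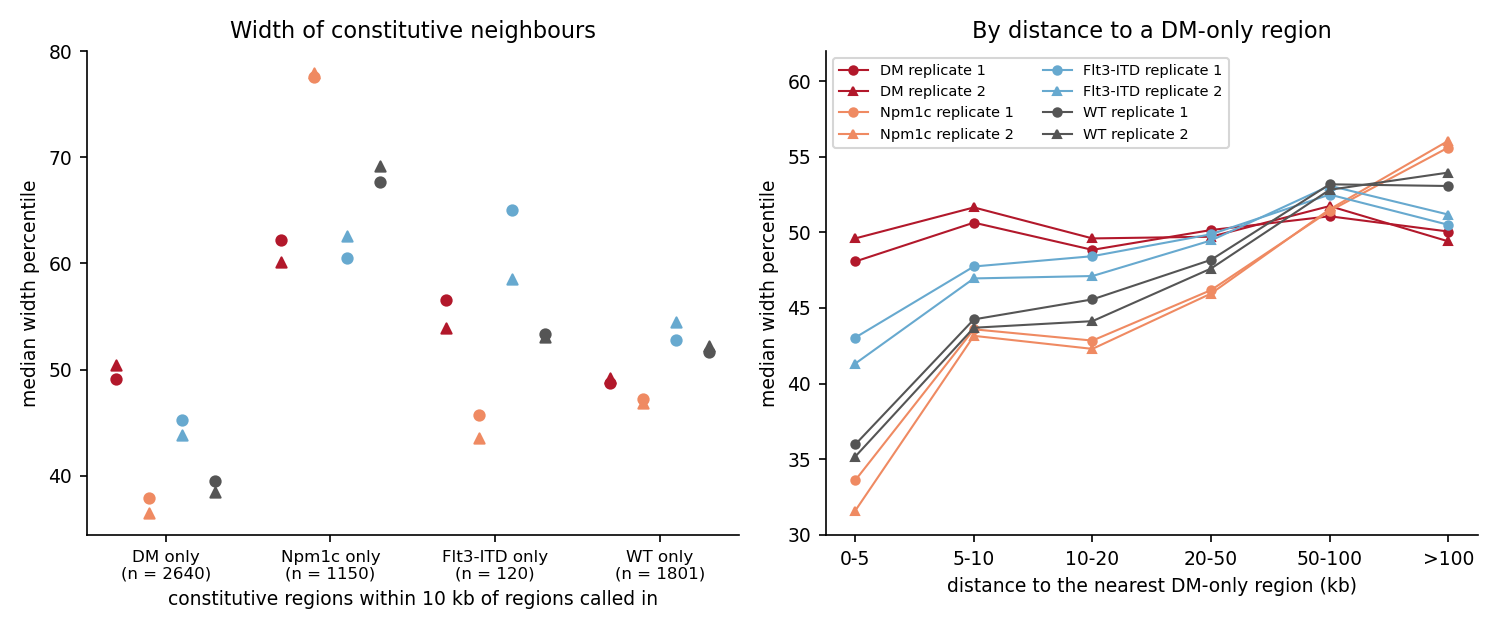
Left, median width percentile, within each library, of regions called in all 8 libraries that lie within 10 kb of DM-only, Npm1c-only, Flt3-ITD-only or WT-only regions; circles are replicate 1 and triangles replicate 2, in the colours of the legend at right. Right, the same measure by distance to the nearest DM-only region; within 5 kb the DM libraries stand at 48.1 and 49.6 and the other 6 between 31.6 and 43.04.

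Of 16619 genes with a region, 3271 (19.7%) held at least 1 DM-only region, 2340 of them just 1 and 57 at least 5. Irf8 (gene ID 15900, chr8:120736358-120756694) held most, 16 of its 48 regions, 11 of them inside the gene. Its calls numbered 31 and 45 in DM, 4 and 4 in Npm1c, 14 and 13 in Flt3-ITD, against 11 and 8 in WT. The DM libraries thus differed between themselves at Irf8, and without DM replicate 1 it held 28 DM-only regions. Macroh2a1 (gene ID 26914, chr13:56073622-56135626) held 9 of 16, with calls of 14 and 15 in DM against 3 to 6 in the other 6 libraries. Cdh13, which encodes T-cadherin, held 8 of 12 regions spread over 441 kb, with 9 and 8 calls in DM, 3 and 2 in Npm1c, 0 and 0 in Flt3-ITD, against 2 and 1 in WT. Arnt2, a partner of bHLH-PAS transcription factors, held 7 of 14, with 14 and 11 calls in DM against 2 to 3. The ranges of DM and of the other libraries did not overlap in any of these 4 genes, which follows in part from the rule.

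Cradd and Socs2 lie on chromosome 10, the first at chr10:95174739-95324138 and the second at chr10:95383903-95417321. Cradd, an adaptor of caspase-2 activation, held 9 DM-only regions of 40, with 31 and 33 calls in DM, 17 and 21 in Npm1c, 17 and 19 in Flt3-ITD, against 23 and 20 in WT. Socs2, a feedback inhibitor of cytokine receptor signalling through STAT5, held 7 of 14, with 10 and 13 calls in DM, 1 and 2 in Npm1c, 2 and 1 in Flt3-ITD, against 4 and 1 in WT. Of the 7 at Socs2, 3 lay inside the gene, and the one reaching farthest towards Cradd was chr10:95357799-95358035, with peaks of 220 and 236 bp. The widest in DM replicate 1 was chr10:95398541-95398990, with peaks of 428 and 450 bp, and the widest in DM replicate 2 was chr10:95410834-95411340, with peaks of 374 and 507 bp. At Socs2 the 2 ranges did not overlap, with at least 10 calls in DM and at most 4 elsewhere, which follows in part from the rule.

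The other genes of the leading 10 were Tmem108, Tbc1d4, Fyn, Camk1d and Nav2, with 8 DM-only regions each. More calls in DM at these genes follow in part from the rule. Tmem108 had 19 and 18 calls of 19 regions in DM, against 8 to 11 elsewhere. Tbc1d4 had 13 and 15 of 23, against 3 to 10. Fyn, a SRC family kinase, had 17 and 21 of 29, against 5 to 12, but with peaks of at least 300 bp alone it held 1 DM-only region. Camk1d, a calcium and calmodulin dependent kinase, had 17 and 21 of 32, against 5 to 16, and 13 DM-only regions without DM replicate 1. At Nav2 the groups overlapped, with 40 and 37 calls of 59 in DM and 17 to 39 elsewhere, and without DM replicate 2 it held 13 DM-only regions. Restricting all lists to peaks of at least 300 bp left 10 DM-only regions at Irf8, 4 at Macroh2a1, 5 at Cradd, 5 at Tmem108, 4 at Tbc1d4 and 5 at Nav2.

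**Figure D4:**
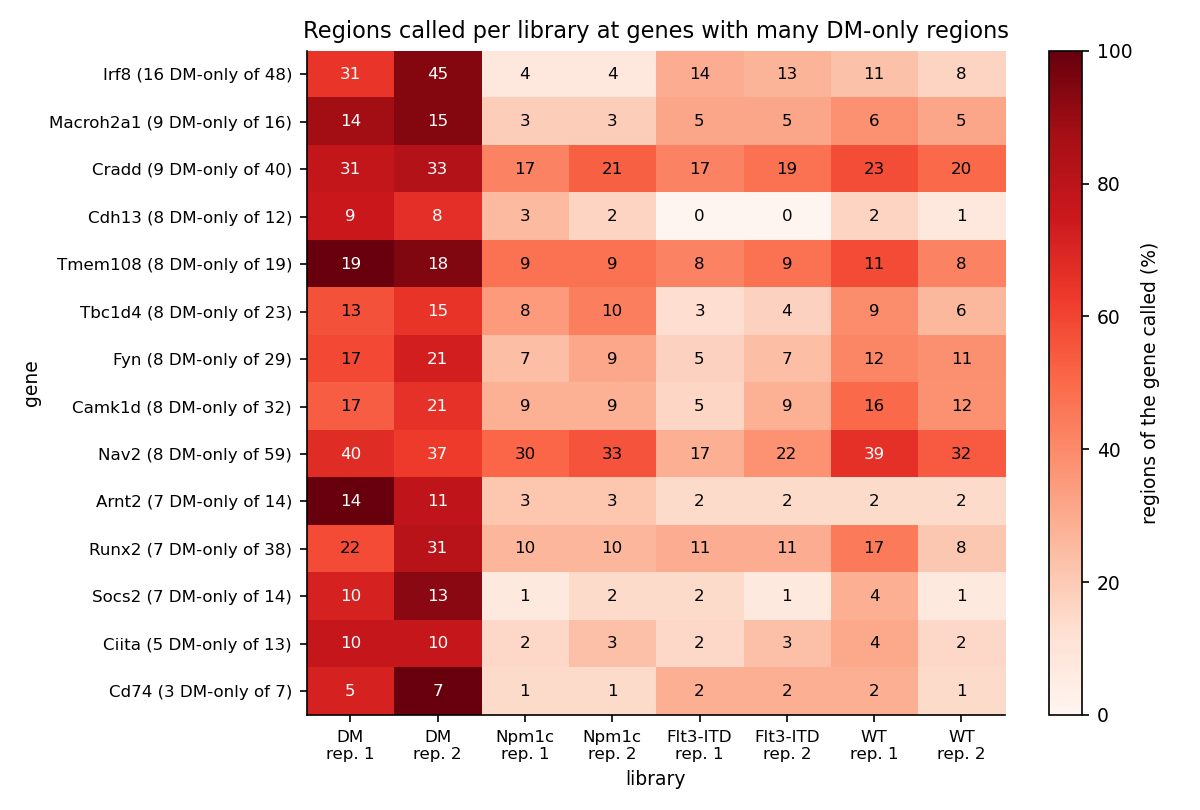
Regions called per library at the 10 genes with most DM-only regions and at Runx2, Socs2, Ciita and Cd74; the number is the count of called regions and the colour its share of the gene's regions. Both DM libraries have more calls than the other 6 at each gene shown except Nav2, where DM has 40 and 37 and WT replicate 1 has 39. This follows in part from the rule, as the genes were picked for their DM-only regions.

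Among 19 gene lists, 10 had a DM-only share above that of all regions. The highest was that of dendritic cell and MHC class II genes, where 50 of 328 regions were DM-only (15.2%, interval 11.5% to 19.6%) and 19 of 25 genes held one. The median share per gene was 12.5%, against 0 over all 16619 genes with a region. Irf8 alone held 16 of the 50. After Irf8, the genes with most were Runx2, a transcription factor of bone and plasmacytoid dendritic cells, with 7 of 38, Ciita, the coactivator of MHC class II genes, with 5 of 13, and Cd74 with 3 of 7. Ciita had 10 and 10 calls in DM, 2 and 3 in Npm1c, 2 and 3 in Flt3-ITD, against 4 and 2 in WT. Its DM-only region chr16:10479767-10480243 spanned the first listed base of the gene, with peaks of 285 and 477 bp, and the other 4 lay inside the gene. Runx2 had 22 and 31 calls in DM, 10 and 10 in Npm1c, 11 and 11 in Flt3-ITD, against 17 and 8 in WT. Not every gene of the list had more calls in DM. Tcf4 had 16 and 21 in DM against 6 to 27 elsewhere, and Bcl11a 14 and 18 against 12 to 36. The genes Flt3, Clec9a, Xcr1, Ly6d, H2-Ab1 and H2-DMb1 held no DM-only region. Calls over the whole list numbered 197 and 257 in DM, 127 and 140 in Npm1c, 122 and 126 in Flt3-ITD, against 192 and 128 in WT, so WT replicate 1 came close to DM replicate 1. Without DM replicate 1 the list held 100 DM-only regions, and with the widest 43794 peaks of each list 33. All DM-only regions numbered 12306 and 3717 in these settings, against 5308. The dendritic markers that were called more often in DM, given above, are members of this group of genes.

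T and NK cell genes had 22 DM-only regions of 166 (13.3%, interval 8.50% to 19.4%), at 14 of 23 genes with a region, with a median per gene of 12.5%. Bcl11b, the transcription factor of T cell commitment, held 3 of 8, with 8 and 7 calls in DM, 0 and 2 in Npm1c, 1 and 1 in Flt3-ITD, against 3 and 2 in WT. The T cell surface receptor genes Cd6 and Cd2 held 3 of 8 and 3 of 13, and Il2rb, the beta chain of the IL-2 receptor, 2 of 7. Il2rb had 5 and 7 calls in DM, 0 and 0 in Npm1c, 1 and 2 in Flt3-ITD, against 2 and 1 in WT. Not every gene of the list had more calls in DM, as Tcf7 had 3 and 5 against 8 and 7 in WT. The genes Cd3d, Cd3e, Cd7, Gata3, Gzmb, Prf1, Tbx21, Tcf7 and Zap70 held no DM-only region. Calls over the whole list numbered 96 and 125 in DM, 56 and 68 in Npm1c, 66 and 75 in Flt3-ITD, against 103 and 78 in WT. WT replicate 1 thus stood above DM replicate 1. The promoter windows of Cd8a, Il2ra and Lck shown above belong to this list. T and NK markers are members of this list. Within 1 kb of them, 2 and 4 regions were called in DM and 0 in the other 6 libraries. By the list's assignment up to 100 kb, Klrb1c had 4 and 4 calls in DM, 5 and 8 in Npm1c, 2 and 2 in Flt3-ITD, against 4 and 4 in WT. Ncr1 had 1 and 3 in DM and 1 and 1 in WT, and Cd3e 0 and 2 in DM and 2 and 0 in WT. Cd8a had calls in DM only. Of the marker regions within 1 kb, 2 were DM-only, so the rule itself sets the absence of these 2 elsewhere. The part of the markers was not tested. Without DM replicate 1 the list held 42 DM-only regions, with peaks of at least 300 bp 13 and with the widest peaks of each list 11. These counts stand beside totals of 12306, 4233 and 3717 DM-only regions in those settings.

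Monocyte and macrophage genes had 29 of 296 (9.80%, interval 6.66% to 13.8%), at 18 of 29 genes with a region. F13a1, the A subunit of coagulation factor XIII, held 3 of 15, with 10 and 12 calls in DM, 3 and 4 in Npm1c, 6 and 4 in Flt3-ITD, against 6 and 2 in WT. The IgG receptor gene Fcgr1 held 2 of 7, the transcription factor gene Maf 2 of 7 and Adgre1, which encodes the macrophage marker F4/80, 2 of 8. Calls over this list numbered 174 and 212 in DM, 154 and 162 in Npm1c, 119 and 131 in Flt3-ITD, against 192 and 141 in WT. WT replicate 1 thus stood above DM replicate 1. Neutrophil genes had 10 of 117 (8.55%, interval 4.17% to 15.2%), an interval that holds the background of 5.13%. Among them were Cebpa, the myeloid transcription factor C/EBP alpha, with 3 of 10, and the formyl peptide receptor gene Fpr2 with 2 of 5. The granule genes Ltf and Mmp8 held 1 each. Calls over the neutrophil list numbered 84 and 81 in DM, 56 and 56 in Npm1c, 46 and 53 in Flt3-ITD, against 94 and 49 in WT. The 3 regions at Cebpa lay 15783, 18095 and 29870 bp from the gene, and the farthest, chr7:35151607-35151988, had peaks of 304 and 349 bp. Cebpa had 9 and 9 calls in DM, 5 and 5 in Npm1c, 5 and 6 in Flt3-ITD, against 7 and 4 in WT. Without DM replicate 1 the monocyte and macrophage list held 70 DM-only regions and the neutrophil list 16, and without DM replicate 2 the neutrophil list held 17. With peaks of at least 300 bp the counts were 19 and 3, and with the widest peaks of each list 18 and 6. All DM-only regions numbered 12306 without DM replicate 1, 6642 without DM replicate 2, and 4233 and 3717 in the last 2 settings.

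Signalling genes stood closer to the background. JAK-STAT and FLT3 signalling genes had 24 of 342 (7.02%, interval 4.55% to 10.3%). Beside Socs2 these were the survival gene Bcl2l1 with 3 of 16, the repressor gene Bcl6 with 3 of 25 and Jak2 with 2 of 13. At these 3 genes DM calls lay within the range of the other 6 libraries. They were 9 and 10 against 8 to 12 at Bcl2l1, 13 and 15 against 9 to 16 at Bcl6, and 6 and 5 against 3 to 11 at Jak2. The same held at Erg, Ccr1, Cxcr4 and Bach2, which belong to lists given below. RAS-MAPK feedback genes had 17 of 300 (5.67%), among them the ERK phosphatase gene Dusp5 with 4 of 24 and Dusp10, Etv5 and Rasgrp1 with 2 each. AP-1 and immediate early genes had 10 of 174 (5.75%), with 2 each at Maff, Nr4a1 and Fos. C/EBP, RUNX and ETS factor genes had 24 of 449 (5.35%), of which Runx2 held 7, Erg 4, Cebpa 3 and Cebpb 2. Cytokine and chemokine receptor genes had 14 of 284 (4.93%), with 2 each at Ccr1 and Cxcr4 and 1 each at Csf2rb and Ccr2. B cell genes had 11 of 167 (6.59%), led by the transcription factor gene Bach2 with 4 of 62, with 1 each at Cd79b, Ms4a1 and Dntt. The B cell markers given above are members of this list. Megakaryocyte and platelet genes had 9 of 143 (6.29%), led by Vwf with 3 of 19 and Cd9 with 2 of 25. Without DM replicate 1 these lists held 46, 45, 21, 63, 38, 38 and 11 DM-only regions in the order given. All DM-only regions then rose from 5308 to 12306.

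The HOX cluster and its cofactors, which are often highly expressed in leukaemia with mutant NPM1, had 6 of 147 (4.08%, interval 1.51% to 8.67%). The 6 included 2 of 20 at Mn1 and 1 each at Hoxa9, Pknox1 and Pbx3. Hoxa9 had 3 and 3 calls in DM, 3 and 4 in Npm1c, 2 and 2 in Flt3-ITD, against 2 and 2 in WT. Stem cell genes had 12 of 389 (3.08%, interval 1.60% to 5.33%), with 4 of 40 at Erg, 2 of 24 at Prdm16 and 1 each at Hoxa9 and Gata2, and this list held 17 Npm1c-only regions. Erythroid genes had 4 of 219 (1.83%, interval 0.50% to 4.61%), 2 at Ank1 and 1 each at Slc4a1 and Zfpm1, beside 14 Npm1c-only regions and 23 regions that were missing only in DM. At Zfpm1, which encodes the GATA1 cofactor FOG1, DM had 10 and 9 calls, Npm1c 15 and 15, Flt3-ITD 19 and 25, and WT 27 and 27. The red cell markers are members of this list. Within 1 kb of them, 4 and 2 regions were called in DM and 6 to 11 elsewhere, and their part was not tested. Interferon response genes had 3 of 97 (3.09%), all at the transcription factor gene Irf1. Heat shock genes had 2 of 95 (2.11%), at Hspa1a and Bag3, beside 17 Npm1c-only regions. Stroma and endothelium genes had 3 of 116 (2.59%), housekeeping genes 2 of 85 (2.35%), both at Ywhaz, and mast cell and basophil genes 1 of 87 (1.15%), at Gata2. Without DM replicate 1 the counts were 20 for HOX, 30 for stem cell, 8 for erythroid, 10 for interferon response, 15 for stroma, 10 for housekeeping and 7 for mast cell genes. All DM-only regions then numbered 12306, against 5308, so these counts cannot be set against the background of 5.13%.

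**Figure D5:**
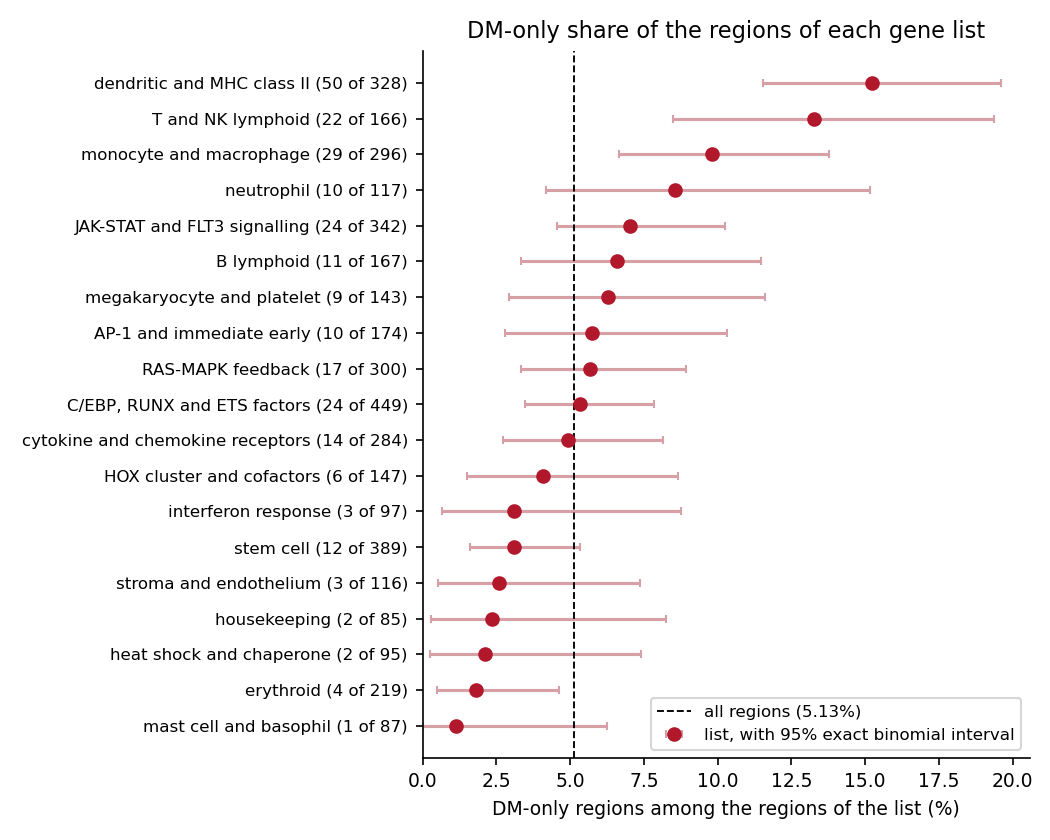
Share of the regions assigned to each of 19 gene lists that are DM-only (points, in %), with 95% exact binomial intervals for counting error only; counts stand beside the names. The dashed line is the share of all regions, 5.13%, and dendritic and MHC class II genes (15.2%) and T and NK lymphoid genes (13.3%) stand highest.

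At 132 genes with a DM-only region no region was called in any of the other 6 libraries. Chosen after their values were seen, these included the CD8 genes Cd8a and Cd8b1, with 1 of 1 and 2 of 3 regions DM-only, the eosinophil chemokine gene Ccl11 with 2 of 3, the folate receptor gene Folr2 with 2 of 4, the EGF receptor ligand gene Ereg with 2 of 2 and the interferon-inducible gene Ifi207 with 2 of 3. The melanin-concentrating hormone receptor gene Mchr1 held most, 4 of 6.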

How the data were processed

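ATAC-seq peak lists of 8 mouse HSPC libraries, 2 per genotype by the sample titles, were used; 2 WT neutrophil samples were not analysed here. Per the submitters' processing notes, the build was mm10, Bowtie2 was the aligner and MACS2 the peak caller; versions, thresholds, duplicate removal and Tn5 shifting are not given in the sources used here. Each deposited list belongs to 1 library and holds 3 columns, chromosome, start and end, with no strength. The narrowest peak was 200 bp.

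Peaks on chromosomes 1 to 19 and X were merged where they shared at least 1 bp (285 peaks elsewhere were left out), and a region was called in a library with a peak in it. Coordinates count from 1. A region went to the shortest of 21633 genes of the RefSeq table (GRCm38.p6) that held its midpoint, else to the nearest gene end within 100 kb. Promoter and miRNA sequences are RefSeq's, on GRCm38.p6; of 404 list genes 308 had a promoter window. Shares carry 95% Clopper-Pearson intervals, which cover counting error only. Neighbour widths were compared by a two-sided exact permutation test over libraries, with a threshold of 0.05, but the neighbourhoods come from the same calls, so the p values support nothing. The merging, the rule and the test were tested on simulated data. The members and the 19 lists were chosen with earlier results of these data known.

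The text names the 10 genes with most DM-only regions, up to 4 genes per list, the 10 widest regions, the 3 longest runs and list genes with an overlapped promoter window; other choices are stated. Alternatives were gaps of up to 100 bp, no merging, peaks of at least 300 bp, equal list lengths, other distances, a replicate block and leaving out each library. Python 3.11.15, numpy 2.4.6, pandas 2.3.3, scipy 1.17.1 and matplotlib 3.10.9 were used.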

Additional observations from a re-analysis of the deposited data

How the results depend on the processing

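Joining peaks across gaps of up to 100 bp, or taking DM peaks that shared at least 50% of the narrower one without merging, gave 5228 and 5419 DM-only regions and kept overlap with 98.6% and 99.9% of the 5308 original ones. Peaks of at least 300 bp gave a no-gene share of 7.28% and a neighbour share of 27.99%. The widest 43794 peaks of each list gave a promoter share of 1.48% and a neighbour share of 23.8%. With a gene distance of 50 kb, 15.5% of the regions had no gene. Leaving out 1 library at a time gave between 5318 and 12306 DM-only regions, no-gene shares of 8.28% to 9.56% and neighbour shares of 29.4% to 48.7%, the highest count and neighbour share without DM replicate 1. Shares inside genes and the number of lists above the background, between 7 and 12, stayed within the range called the same. Of 152 list counts with a library left out, 23 moved by over 1.5 times, and of 95 under other alternatives 23 did. The width difference of 9.49 percentile points lay between 7.92 and 10.3 with a library left out. It was 12.04 within 5 kb, 7.15 within 20 kb and, chosen after seeing the data, 8.68 for regions 1 to 10 kb away. Its two-sided exact permutation p was 0.0357 over 28 relabellings, 0.0714 after adjustment over the 4 sets, and 0.0625 with the replicate number as a block, where the difference was again 9.49. The regions were picked by calls of the same libraries, so these p values support nothing. The replicate numbers do not pair the libraries, as the correlations of same-numbered deviations lay between -0.0399 and 0.0387. Depth is unknown, and 2 libraries per group limit every comparison.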

Other observations

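Of 540 miRNA hairpins within 5 kb of any region, 35 (6.48%) lay within 5 kb of a DM-only region, and 1, Mir6347, was overlapped by one. The miRNAs named here were chosen after their values were seen, because 2 of them share a seed. Mir193a, at chr11:79711969-79712034, lay 4537 bp from a region with peaks of 293 and 342 bp in DM. Mir193b, at chr16:13449523-13449601, lay 2860 bp from a region with peaks of 342 and 264 bp. Their mature 3p forms are given 5′ to 3′ with the seed, bases 2 to 8, in capitals.
mmu-miR-193a-3p: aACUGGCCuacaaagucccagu
mmu-miR-193b-3p: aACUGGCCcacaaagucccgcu

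Mir196b, beside the Hoxa genes at chr6:52230081-52230165, lay 2123 bp from a DM-only region with peaks of 266 and 310 bp. The peak lists show accessibility near these hairpins and not whether the miRNAs were made.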
